A study of Mus musculus with 17 samples.

Results

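The proteasome genes were taken as every array probe whose annotated symbol begins with Psm, then a letter from a to g, then a digit. The pattern took 86 of 45281 probes, which stand for 49 of 19057 genes. Of these genes, 47 encode core subunits, regulatory subunits, activators or assembly factors. The other members, Psmc3ip and Psme3ip1, match by name only. Psmc3ip is a factor of meiotic recombination, and Psme3ip1 binds the activator encoded by Psme3. The inhibitor gene Psmf1 had no probe in this set and was not analysed here.

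The proteasome is the main protease of the cytosol and nucleus and destroys proteins marked with ubiquitin. Its core is a barrel of α and β rings, and the β subunits Psmb5, Psmb6 and Psmb7 cut the substrate. Under interferon and in cells of the immune system, Psmb8, Psmb9 and Psmb10 take their place, giving the immunoproteasome, which favours peptides for display on MHC class I. A regulatory particle with a base of ATPases and a lid binds, unfolds and feeds the substrate, and other activators open the core without ATP.

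Messenger RNA was measured on 17 Illumina arrays from marrow cells of C57Bl/6 mice, taken 4 days after the animals received 150 mg/kg of the cytotoxic drug 5-fluorouracil. All groups alike were cultured for 7 days in StemSpan medium with Flt3 ligand, IL-11 and stem cell factor, and viable cells bearing the green marker of an MXW retroviral vector were collected 5 days after the first infection. Dataset A held 3 arrays with the microRNA cluster 99b/let-7e/125a, 2 with miR-155 and 3 with the empty vector. Dataset B held 3 arrays with the cluster, 3 with miR-125a and 3 with the empty vector. How much of each microRNA the cells made is not measured here. The labels give neither the age nor the sex of the mice, and the arrays measure a mixed culture, so fewer cells of a type and less RNA per cell cannot be told apart. P-values measure the spread among these arrays, which the design text calls independent biological replicates. The design text speaks of triplicates, and 2 miR-155 arrays were analysed here. For dataset A, 1 cluster array is given no number, because its intensity header repeats that of cluster array 1, while the detection column beside it, used with it, is headed as cluster array 2.

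The vectors differ in the microRNAs they add, and a microRNA chooses its targets mainly by its seed. The sequences are shown because all 4 seeds differ, so that no vector of dataset A shares a seed with the other, while in dataset B miR-125a is a member of the cluster. They are the mature 5p arms in RefSeq (GRCm38.p6), with the seed, bases 2 to 8, in capitals. miR-99b-5p lies at chr17:17830194-17830215, let-7e-5p at chr17:17830366-17830387, miR-125a-5p at chr17:17830817-17830840 and miR-155-5p at chr16:84714143-84714165, all on the plus strand.
mmu-miR-99b-5p: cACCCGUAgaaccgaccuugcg
mmu-let-7e-5p: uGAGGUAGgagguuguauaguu
mmu-miR-125a-5p: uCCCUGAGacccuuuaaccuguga
mmu-miR-155-5p: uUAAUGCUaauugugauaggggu

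Almost all proteasome genes were readable in these cells. The brightest probe of each gene stood for it, and 40 of the 49 genes were detected (detection p under 0.05) on all 17 arrays. In dataset A 44 genes and in dataset B 43 genes passed the filter on detection and were tested. The α-ring genes Psma1, Psma3 and Psma6, the lid gene Psmd3 and the assembly gene Psmg4 were detected on 0 arrays and were not tested. Core subunits are needed in every cell, so a missing signal is not read as missing expression, and whether these probes can report the genes was not tested. Psmb11, a catalytic subunit of thymic epithelium, was detected on 3 of 8 arrays of dataset A and 1 of 9 of dataset B and was tested in dataset A only. The ATPase gene Psmc6, the base gene Psmd2 and Psma8, a testis form of an α subunit, were dim, detected on 7 of 8 arrays of dataset A and 9 of 9 of dataset B. Per array, 34.8% to 38.7% of all probes were detected in dataset A and 34.2% to 38.9% in dataset B. The number of arrays limits the precision.

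No proteasome gene passed the test with any vector. With limma and Benjamini-Hochberg adjustment over all genes, 0 of 44 were called with the cluster in dataset A, where 0.643% of all 10259 tested genes were called. With miR-155, 0 of 44 were called against 1.05% of all genes. In dataset B, 0 of 43 were called with the cluster against 0.0106% of 9390 genes, and 0 of 43 with miR-125a against 0% of all genes. At these shares fewer than 1 call among the members would match the background, so the counts of 0 do not set the proteasome genes apart. At an unadjusted p under 0.05 the members numbered 0 with the cluster in dataset A (7.81% of all genes), 1 with miR-155 (8.97%), 1 with the cluster in dataset B (9.76%) and 2 with miR-125a (10.6%). These are Psme4, then Psmd6, then Psmb10 and Psmc3ip, and their lowest adjusted p in each comparison was 0.495, 0.484 and 0.425.

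The intervals say which sizes of change the arrays could exclude, gene by gene and without adjustment for the number of genes. A 95% interval lying within 1.5-fold either way was found for 34 of 44 members with the cluster in dataset A (64.9% of all genes) and for 34 of 44 with miR-155 (47.3%). In dataset B it was found for 39 of 43 with the cluster (69.8%) and for 38 of 43 with miR-125a (68.4%). Within 2-fold lay all 44 members with the cluster in dataset A (97.8% of all genes), 43 of 44 with miR-155 (94.8%), and all 43 in both comparisons of dataset B (96.9% with the cluster and 96.8% with miR-125a). The exception was Psmd2 with miR-155. The within-group SD of the members had a median of 0.184 in dataset A, beside 0.215 over all genes, and of 0.122 in dataset B, beside 0.186. It was lowest for Psmb7 in dataset A (0.0630) and for Psmb6 in dataset B (0.0550), and highest for Psmd2 (0.400) and Psmd9 (0.253).

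**Figure D1:**
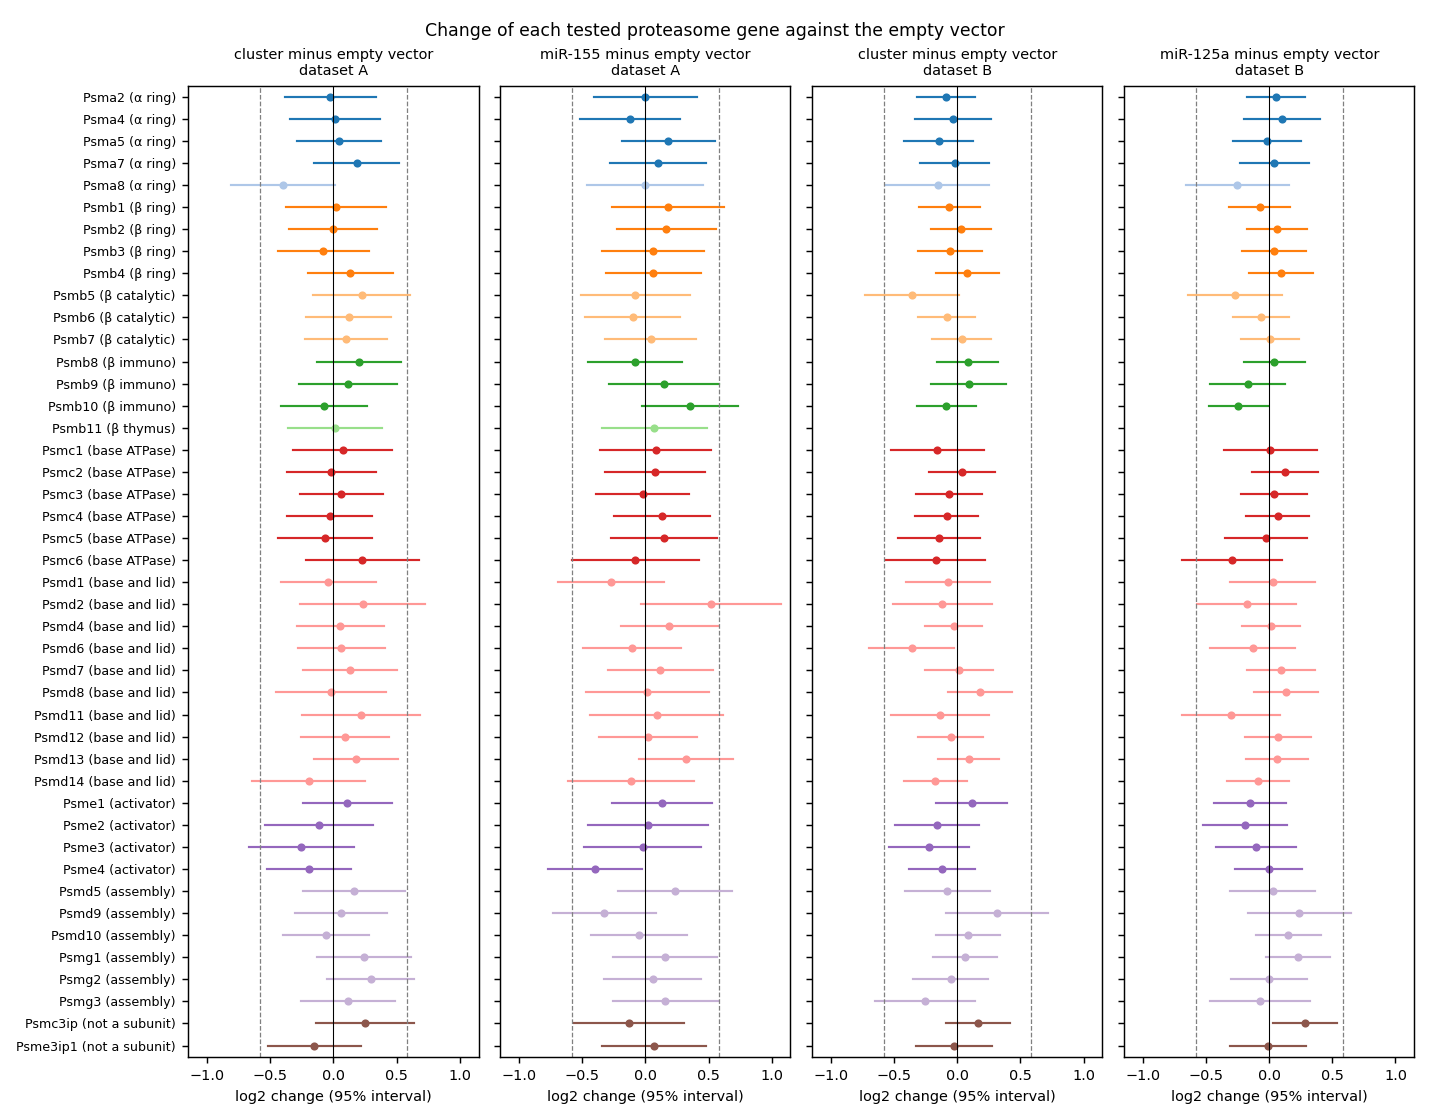
Log2 change of each tested gene against the empty vector (points) with its 95% interval (lines), by role from top to bottom, for the cluster and miR-155 in dataset A and the cluster and miR-125a in dataset B. Dashed lines mark 1.5-fold either way. The intervals cross 0 except for Psme4 with miR-155, Psmd6 with the cluster in dataset B, and Psmb10 and Psmc3ip with miR-125a, and the point estimates run between -0.40 and 0.52.

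The median log2 change of the members was 0.06 with the cluster in dataset A (all genes 0.00150), 0.06 with miR-155 (0.00519), -0.07 with the cluster in dataset B (0.02) and 0.00793 with miR-125a (0.03). Positive values numbered 28 of 44, 29 of 44, 14 of 43 and 23 of 43 in that order, beside 50.3%, 50.9%, 54.9% and 56.6% of all genes. These medians are small beside the normalization: scaling arrays to a common median in place of quantiles moved the median of all genes to -0.08, -0.31, 0.32 and 0.48, and that of the members to -0.02, -0.32, 0.26 and 0.51. Under that scaling 3 of 43 members were called with miR-125a, namely Psmg1, Psmd10 and Psmc3ip, beside 1769 of all 9390 tested genes.

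Among the constitutive catalytic genes, Psmb5 had the largest estimates with the cluster in both datasets. Its subunit cuts after hydrophobic residues and is the main target of proteasome inhibitors. It had normalized log2 intensities of 9.67, 9.89 and 9.51 on the cluster arrays of dataset A and of 9.62 and 9.16 on the miR-155 arrays. On the empty-vector arrays it had 9.65, 9.50 and 9.25. The 3 groups overlap. In dataset B it had 10.76, 10.30 and 10.61 on the cluster arrays, 10.57, 10.50 and 10.86 on the miR-125a arrays, and 10.89, 11.17 and 10.68 on the empty-vector arrays. There the empty-vector arrays were on average the highest, though each vector has an array above the lowest of them.

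The estimate for Psmb5 was positive with the cluster in dataset A, at 0.22 ± 0.18 (SE, 3 arrays against 3, limma adjusted p = 0.874), and negative with it in dataset B, at -0.36 ± 0.17 (adjusted p = 0.530). With miR-125a it was -0.27 ± 0.17 (adjusted p = 0.610) and with miR-155 -0.08 ± 0.20 (adjusted p = 0.955). The cluster and miR-125a estimates in dataset B share the same 3 empty-vector arrays. Leaving out 1 array at a time put the cluster estimate of dataset B between -0.47 and -0.23, with -0.23 reached without cluster array 5.

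Psmb6 and Psmb7, the other constitutive catalytic genes, had the smallest spread of the set, Psmb7 in dataset A and Psmb6 in dataset B. Psmb6 measured 11.90 ± 0.04 on the cluster arrays and 11.92 ± 0.07 on the miR-125a arrays, against 11.99 ± 0.05 on the empty-vector arrays of dataset B (SD, n = 3 each). For Psmb7, the cluster arrays of dataset A read 11.84, 11.80 and 11.83, each above the empty-vector arrays at 11.72, 11.67 and 11.79. The difference was 0.10 ± 0.15, well inside the fitted error (adjusted p = 0.966). On their brightest probes, all log2 differences of Psmb6 and Psmb7 against the empty vector lay between -0.10 and 0.12. In dataset B the interval of Psmb6 with the cluster ran from a fold of 0.807 to 1.10. Not all their other probes kept to that range. Another Psmb7 probe read 9.72, 9.53 and 9.70 with miR-125a, against 9.20, 9.43 and 9.41 with the empty vector. With the cluster in dataset A, a further Psmb7 probe read 11.16, 11.04 and 11.13, against 11.31, 11.11 and 11.17. There it averaged lower, unlike the remaining Psmb7 probes.

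On their brightest probes, the immunoproteasome genes showed no common shift. Psmb8 was 11.88 ± 0.06 on the cluster arrays of dataset A (n = 3) and 11.60 ± 0.01 with miR-155 (n = 2), against 11.68 ± 0.15 with the empty vector (n = 3). In dataset B it read 12.16, 12.06 and 12.02 with the cluster and 12.09, 11.97 and 12.04 with miR-125a, against 12.05, 11.86 and 12.08 with the empty vector. On its brightest probe the log2 differences of Psmb8 ran between -0.08 and 0.20. Its other probe, also detected on all arrays, read 7.55 and 7.36 with miR-155, against 7.72, 6.89 and 6.86 with the empty vector. These overlap, with a higher mean with miR-155, opposite to the brightest probe. Read by that probe, all the immunoproteasome genes had positive estimates with miR-155, none of them called. Psmb9 spread most on the cluster arrays of dataset A, at 10.47, 10.38 and 9.82, against 10.20, 10.06 and 10.07 with the empty vector, so that cluster array 3 alone lay below the empty-vector arrays. Its difference there was 0.11 ± 0.18 (adjusted p = 0.968), and 0.31 without that array. The other differences of Psmb9 were 0.15 ± 0.21 with miR-155, 0.09 ± 0.13 with the cluster in dataset B and -0.17 ± 0.13 with miR-125a.

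Psmb10 had the largest estimates of the immunoproteasome genes, positive with miR-155 and negative with miR-125a. It read 9.96 and 9.92 on the miR-155 arrays, against 9.42, 9.77 and 9.57 on the empty-vector arrays, without overlap. The difference was 0.35 ± 0.18 (2 arrays against 3, adjusted p = 0.593), a fold of 1.28 with a 95% interval of 0.983 to 1.66. With the cluster in dataset A it read 9.57, 9.50 and 9.46, within the range of the empty-vector arrays. Its other probe gave 0.31 with miR-155 and 0.18 with the cluster, where the brightest gave -0.07.

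In dataset B, Psmb10 was below every empty-vector array (9.97, 10.06 and 9.99) on all 3 arrays of miR-125a (9.85, 9.81 and 9.62) and on all 3 of the cluster (9.92, 9.90 and 9.94). The difference was -0.25 ± 0.11 with miR-125a (unadjusted p = 0.0405, limma adjusted p = 0.453) and -0.09 ± 0.11 with the cluster (adjusted p = 0.852), both against the same empty-vector arrays. Its other probe gave -0.12 and -0.05. Leaving out 1 array at a time, the miR-125a value stayed between -0.29 and -0.18.

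**Figure D2:**
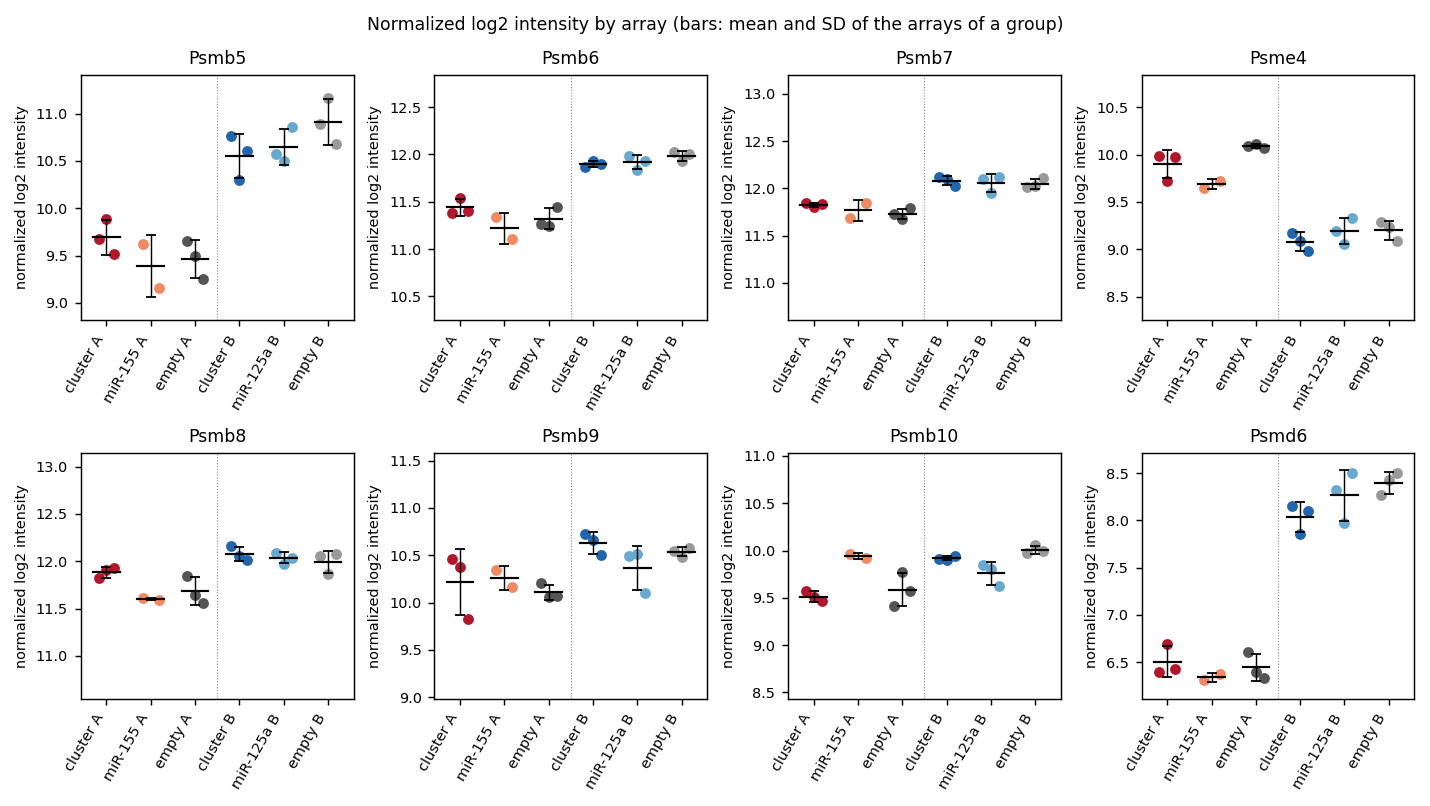
Normalized log2 intensity of the 6 catalytic genes, Psme4 and Psmd6 on each array, with the mean and SD of each group. Datasets A (left) and B (right) were normalized separately, so levels are read within a dataset only. The miR-155 arrays lie apart from the empty-vector arrays for Psme4 (9.65 and 9.72) and Psmb10 (9.96 and 9.92), and the cluster arrays of dataset B for Psmd6 (8.15, 7.85 and 8.09).

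The difference of each immunoproteasome gene was also set against that of the constitutive gene it replaces, as the difference of log2 values on each array relative to the mean of the empty-vector arrays. For Psmb8 over Psmb5 the arrays of dataset B read 0.32, 0.67 and 0.33 with the cluster and 0.44, 0.39 and 0.10 with miR-125a, against 0.08, -0.39 and 0.31 with the empty vector. Every cluster array exceeded every empty-vector array, the closest at 0.32 against 0.31, and their mean was 0.44. All pairs use the brightest probe of each gene. The cluster and empty-vector arrays of dataset B also did not overlap for Psmb9 over Psmb6, nor the miR-155 and empty-vector arrays, both higher with the vector. These separations rest on the brightest Psmb6 probe. The other Psmb6 probe, detected on all arrays, read 11.16, 11.12 and 11.43 with the cluster in dataset B, against 11.06, 11.39 and 11.25. With miR-155 it read 11.21 and 11.28, against 11.03, 11.14 and 11.41. With it, neither pair stays apart. Psmb10 over Psmb7 was lower on every miR-125a array (-0.22, -0.10 and -0.45) than on the empty-vector arrays (-0.00272, 0.07 and -0.07). These pairs have no test and no share over all genes beside them. For Psmb8 over Psmb5 in dataset A the mean was -0.02 with the cluster and -0.000656 with miR-155. Psmb9 over Psmb6 averaged 0.17 with the cluster and -0.10 with miR-125a in dataset B, and -0.00860 with the cluster and 0.25 with miR-155 in dataset A. Psmb10 over Psmb7 averaged -0.17 and -0.12 with the cluster in datasets A and B, -0.26 with miR-125a and 0.31 with miR-155.

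Of the structural core genes, which hold the rings together, 0 passed the test in any comparison. The 4 tested α-ring genes Psma2, Psma4, Psma5 and Psma7 were read by their brightest probes. They gave differences of -0.03 to 0.18 with the cluster in dataset A and of -0.12 to 0.18 with miR-155. In dataset B these were -0.15 to -0.02 with the cluster and -0.02 to 0.10 with miR-125a. On their brightest probes, the 4 structural β-ring genes Psmb1 to Psmb4 stayed between -0.08 and 0.18 throughout. Psma7 averaged 11.15 ± 0.01 on the cluster arrays of dataset A, against 10.97 ± 0.05 with the empty vector (SD, n = 3 each), a difference of 0.18 ± 0.16 (adjusted p = 0.889). Its other probe, detected on all arrays, gave larger differences there, none of them called. That probe read 11.05, 11.20 and 11.13 with the cluster and 11.20 and 11.10 with miR-155, against 10.83, 10.81 and 10.89 with the empty vector.

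The testis form Psma8 had the lowest estimate with the cluster in dataset A, on a probe near the limit of detection. It read 4.90, 5.07 and 4.48 on the cluster arrays, of which 2 of 3 were detected, against 5.22, 5.52 and 4.91 on the empty-vector arrays. The groups overlap, and the difference was -0.40 ± 0.19 (unadjusted p = 0.0549, limma adjusted p = 0.652). It was -0.24 without cluster array 3 and -0.56 without empty-vector array 3. In dataset B the difference was -0.16 with the cluster and -0.25 with miR-125a. The other Psma8 probe, detected on 6 arrays of dataset B, read 4.92, 4.97 and 4.99 with miR-125a, against 4.56, 5.00 and 5.12. It averaged no lower there, but lower with the cluster in both datasets. The thymus form Psmb11 differed by 0.01 with the cluster and 0.07 with miR-155, on values that most arrays did not tell from background.

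The base of the regulatory particle holds 6 ATPases, Psmc1 to Psmc6, which unfold the substrate. By brightest probe, their differences ran from -0.07 to 0.23 with the cluster in dataset A and from -0.08 to 0.15 with miR-155. They ran from -0.17 to 0.04 with the cluster in dataset B and from -0.30 to 0.12 with miR-125a. The dim Psmc6 gave the ends at 0.23, -0.08, -0.17 and -0.30. It read 6.27, 6.38 and 6.28 on the miR-125a arrays, each below the empty-vector arrays at 6.54, 6.56 and 6.74, a difference of -0.30 ± 0.18 (adjusted p = 0.601). On the cluster arrays of dataset B it read 6.67, 5.97 and 6.67, with array 5 alone lower. The other probes of Psmc2 and Psmc5, detected on all arrays, did not always keep to these ranges. That of Psmc5 read 9.97, 10.01 and 10.12 with the cluster in dataset B, each below the empty-vector arrays at 10.29, 10.37 and 10.22. That of Psmc2 read 8.75, 8.45 and 8.77 with miR-125a, against 8.45, 8.29 and 8.51, and averaged higher.

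The 10 tested non-ATPase genes of the base and lid include the ubiquitin receptor Psmd4 and the deubiquitinase Psmd14. Psmd6, a lid subunit, read 8.15, 7.85 and 8.09 on the cluster arrays of dataset B and 8.32, 7.97 and 8.50 on the miR-125a arrays. On the empty-vector arrays it read 8.26, 8.42 and 8.50. All 3 cluster arrays lie below the empty-vector arrays, while the miR-125a arrays overlap them. The cluster difference was -0.36 ± 0.15 (unadjusted p = 0.0377, limma adjusted p = 0.484), a fold of 0.778 with an interval of 0.615 to 0.983. It was -0.27 without cluster array 5, and the gene's other probe gave -0.18. In dataset A the cluster difference was 0.06 ± 0.16.

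Psmd2, a scaffold of the base, had the largest estimate of the set and the widest interval. It read 5.44 and 5.39 on the miR-155 arrays, against 4.99, 5.32 and 4.37 on the empty-vector arrays, of which 2 of 3 were detected. The difference of 0.52 ± 0.26 (interval -0.03 to 1.08, adjusted p = 0.591) was 0.26 without empty-vector array 3. Psmd13, a lid gene with a bright probe, read 11.77 and 11.87 with miR-155, against 11.55, 11.56 and 11.38 with the empty vector, a difference of 0.32 ± 0.18 (adjusted p = 0.645). Psmd1, a scaffold of the base, read 11.70 and 11.62 with miR-155, against 11.98, 11.79 and 12.02, a difference of -0.27 ± 0.20 (adjusted p = 0.776). Both of its other probes were positive there (0.09 and 0.18).

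Other members of the base and lid gave the ends of single comparisons. Psmd11, a lid gene, was -0.30 ± 0.18 with miR-125a (adjusted p = 0.584), with 8.41, 8.10 and 8.39 against 8.86, 8.28 and 8.66, which overlap. It lay between -0.46 without empty-vector array 5 and -0.17 without empty-vector array 4. The other detected Psmd11 probe read 6.33, 6.33 and 7.03 with miR-125a, against 6.69, 6.24 and 6.65, and averaged no lower. Psmd14 was -0.20 ± 0.21 with the cluster in dataset A (-0.41 without empty-vector array 3 and 0.01 without empty-vector array 1) and -0.18 ± 0.11 with it in dataset B, where 10.73, 10.52 and 10.57 stood against 10.87, 10.82 and 10.67 with the empty vector. Psmd8, a lid gene, was 0.18 ± 0.11 with the cluster in dataset B (adjusted p = 0.671).

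Among the activators, Psme4 gave the smallest p of the miR-155 comparison. Its product caps the core and opens it without ubiquitin. It read 9.65 and 9.72 on the miR-155 arrays and 9.99, 9.73 and 9.98 on the cluster arrays. The empty-vector arrays of dataset A read 10.09, 10.11 and 10.07, above all arrays of both vectors. With miR-155 the difference was -0.40 ± 0.18 (unadjusted p = 0.0354, limma adjusted p = 0.495), a fold of 0.756 with an interval of 0.584 to 0.979. With the cluster it was -0.19 ± 0.16 (adjusted p = 0.874). Both differences share the 3 empty-vector arrays. The other probe of Psme4, detected on 2 of 8 arrays, gave 0.15 with miR-155 and 0.03 with the cluster. In dataset B the differences of Psme4 were -0.12 ± 0.12 with the cluster and -0.01 ± 0.12 with miR-125a.

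Psme1 and Psme2, whose products form the interferon-inducible activator ring, shared a direction in 2 of the 4 comparisons on their brightest probes. Psme1 differed by 0.11 and Psme2 by -0.11 with the cluster in dataset A, and by 0.11 and -0.16 with it in dataset B. With miR-125a they differed by -0.15 and -0.19, and with miR-155 by 0.13 and 0.02. The other Psme1 probe, detected on all arrays, read 10.69, 10.55 and 10.62 with the cluster in dataset B. It read 10.69, 10.73 and 10.75 with the empty vector there, so by that probe Psme1 averaged lower with the cluster, as Psme2 did. On cluster array 1 of dataset A, Psme2 read 7.97, below the other arrays of that dataset at 8.40 to 8.79. Psme3, whose product forms the nuclear activator ring, was negative in all 4 comparisons (-0.25 and -0.23 with the cluster in datasets A and B, -0.11 with miR-125a and -0.02 with miR-155). Its sign rests on single arrays for miR-125a (0.05 without miR-125a array 2) and miR-155 (0.12 without empty-vector array 1), and its value with the cluster in dataset A ran between -0.46 without cluster array 3 and -0.10 without cluster array 1. On the cluster arrays of dataset B it read 10.23, 10.23 and 10.42, each below the empty-vector arrays at 10.47, 10.47 and 10.61, with adjusted p = 0.672.

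Assembly factors build the rings and the base. Psmg1 and Psmg2, a pair of chaperones of the α ring, gave positive estimates with the cluster in dataset A, of 0.24 ± 0.17 and 0.29 ± 0.16 (adjusted p = 0.840 and 0.751). Psmg2 read 9.18, 9.16 and 9.29 on the cluster arrays, against 9.01, 8.97 and 8.77 with the empty vector, without overlap. In dataset B the cluster estimates were 0.06 for Psmg1 and -0.05 for Psmg2, smaller than in dataset A. With miR-125a, Psmg1 read 8.87, 8.94 and 9.06, against 8.72, 8.73 and 8.74, a difference of 0.22 ± 0.11 (adjusted p = 0.531), while Psmg2 gave -0.00321. Psmg3, a chaperone that follows them in ring assembly, was -0.26 ± 0.18 with the cluster in dataset B (8.34, 8.34 and 8.55 against 8.68, 8.70 and 8.63, adjusted p = 0.707).

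Among the base chaperones Psmd5, Psmd9 and Psmd10, the dim Psmd9 ranged most widely. It was 0.32 ± 0.18 with the cluster in dataset B (5.99, 6.15 and 6.23 against 5.69, 5.64 and 6.09, adjusted p = 0.635) and 0.24 ± 0.18 with miR-125a. Its other probe was negative in both (-0.16 and -0.14). With miR-155 it was -0.32 ± 0.19, at 5.39 and 5.63 against 5.74, 5.78 and 5.98. By brightest probe, Psmd5 ran between -0.08 and 0.24 and Psmd10 between -0.06 and 0.15 over the 4 comparisons. The other Psmd10 probes, detected on all arrays, did not keep to that range. The brighter of them read 8.51 and 8.87 with miR-155, against 8.79, 9.13 and 8.84. The dimmer read 7.99, 8.12 and 7.69 with the cluster in dataset A, against 7.36, 7.98 and 7.87.

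Of the members by name only, Psmc3ip gave the smallest p with miR-125a. It read 9.30, 9.19 and 9.41 with miR-125a and 9.06, 9.15 and 9.33 with the cluster in dataset B, against 8.98, 9.03 and 9.05 with the empty vector, so that both vectors lay above. The miR-125a difference was 0.28 ± 0.11 (unadjusted p = 0.0333, limma adjusted p = 0.425). Psme3ip1 ran between -0.15 and 0.07. Without these 2 genes the member medians were 0.06, 0.06, -0.07 and 0.00793 in the order used above.

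Some members had groups that did not overlap, and their counts are read against the share over all genes. With the cluster in dataset A, 4 of 44 members were higher on every array (6.36% of all genes), namely Psma7, Psmb4, Psmb7 and Psmg2, and 1 was lower (6.62%), Psme4. With miR-155, 5 were higher (11.6%), Psma5, Psmb10, Psmc4, Psmd2 and Psmd13, and 3 were lower (12.5%), Psmd1, Psmd9 and Psme4. With the cluster in dataset B, 1 of 43 was higher (10.3%), Psmc3ip, and 4 were lower (5.81%), Psmb10, Psmd6, Psme3 and Psmg3. With miR-125a, 2 were higher (10.1%), Psmc3ip and Psmg1, and 2 were lower (5.32%), Psmb10 and Psmc6.

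Probes for one gene often gave different signs, which bounds how far a single estimate can be read. Beside the brightest probe, 28 other detected probes measured 22 of the genes. They had the sign of the brightest probe for 17 of 28 with the cluster in dataset A, 14 with miR-155, 16 with the cluster in dataset B and 14 with miR-125a. The widest gaps were 0.57 for Psmd11 with the cluster in dataset A, 0.55 for Psme4 with miR-155, 0.47 for Psmd9 with the cluster in dataset B and 0.45 for Psmd1 with miR-125a. Tested on their own, 0 of these probes were called by limma.

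**Figure D3:**
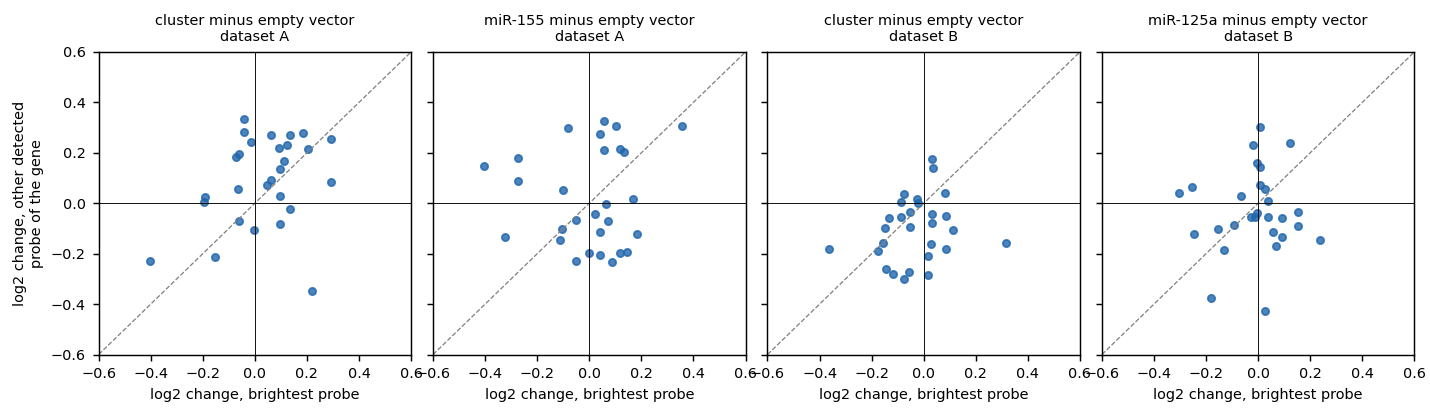
Log2 change against the empty vector of the brightest probe of a gene (x axis) and of each other detected probe of that gene (y axis), 28 probes of 22 genes in each panel. The dashed line marks equality. The points scatter around 0 rather than along the line, with the sign shared by 14 to 17 of the 28.

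The members' position on single arrays varied most in dataset B. On cluster array 5, 7 of 43 members lay above the mean of the 9 arrays, and on miR-125a array 2, 12 did. On miR-125a arrays 1 and 3 it was 31 each, and on the other arrays of dataset B between 20 and 27. The member median relative to the empty-vector mean was -0.12 on cluster array 5 and -0.10 on miR-125a array 2. The same 2 arrays had the highest mean of 8 neutrophil markers (Ltf, Camp, Ngp, Lcn2, S100a8, S100a9, Mmp8 and Mmp9, all tested), at 1.37 and 1.62 above the dataset mean, while the other 7 arrays lay between -0.999 and 0.23. They were also the highest for 3 dendritic markers (0.55 and 0.60) and for 6 monocyte and macrophage markers (0.24 and 0.16). On miR-125a array 3, which had the highest member median (0.10), 6 mast cell and basophil markers averaged 1.47. The part of these cells in the members' position was not tested. Without cluster array 5 the member median with the cluster was -0.02 in place of -0.07, and without miR-125a array 2 the median with miR-125a was 0.07 in place of 0.00793.

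In dataset A the neutrophil markers moved with the groups. Their mean lay between -0.42 and -0.13 on the cluster arrays and at -0.35 and -0.41 on the miR-155 arrays, against 0.35 to 0.65 on the empty-vector arrays. With each vector 3 of 8 were called lower, Ltf, Camp and Ngp. Positive values numbered 2 of 8 with the cluster and 1 of 8 with miR-155, with median changes of -0.50 and -0.59. The member medians on these arrays lay between -0.03 and 0.09 with the cluster, at 0.04 and 0.05 with miR-155 and between -0.07 and 0.02 with the empty vector, and 0 members were called. Other marker lists with called genes were eosinophil (Prg2 and Prg3, lower with the cluster) and, lower with miR-155, monocyte and macrophage (Adgre1) and mast cell and basophil (Fcer1a). Against miR-155, the cluster arrays had the dendritic marker H2-Ab1 higher by 1.03 (adjusted p = 0.0133), and all 6 monocyte and macrophage markers were positive (0.44 to 0.67), with 0 called. Their part was not tested.

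**Figure D4:**
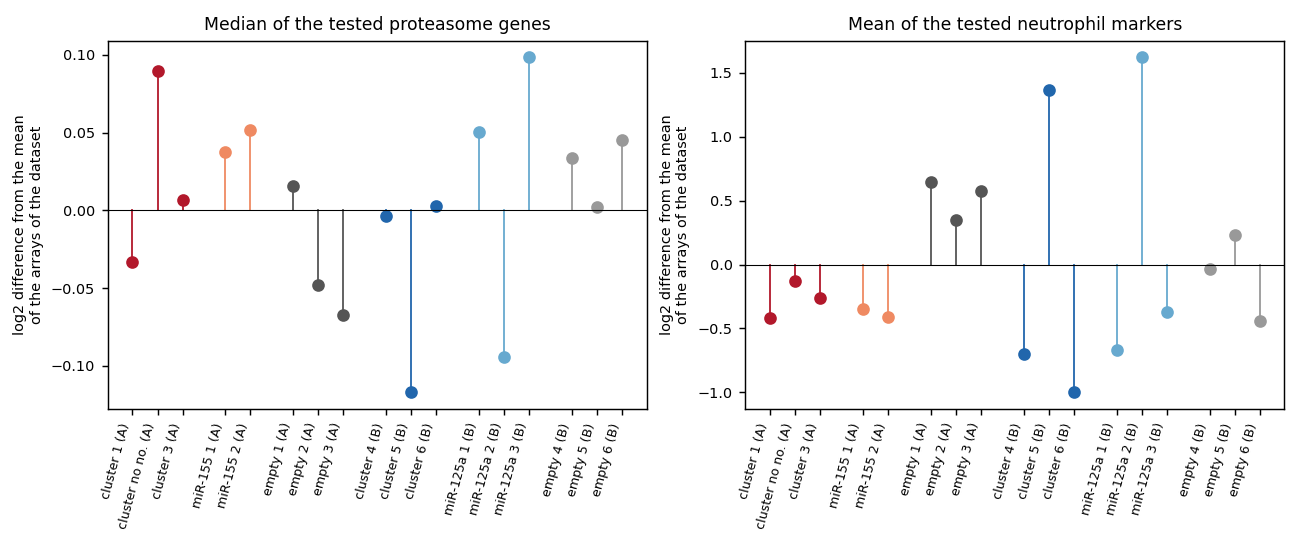
Median of the tested proteasome genes (left) and mean of 8 neutrophil markers (right) on each array, as log2 differences from the mean of all arrays of its dataset. Cluster array 5 and miR-125a array 2 of dataset B are lowest on the left and highest on the right (1.37 and 1.62).

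Genes that work with the proteasome outside the symbol pattern were read as a list. Of 18 such genes on the array, 16 were tested in each dataset, and limma called 0 in any of the 4 comparisons, beside the 0.643%, 1.05%, 0.0106% and 0% of all genes given above, which leave fewer than 1 call to be expected. At an unadjusted p under 0.05 there was 1 with the cluster in dataset A (7.81% of all genes). There were 0 with miR-155 (8.97%), with the cluster in dataset B (9.76%) and with miR-125a (10.6%). The list had 10, 9, 11 and 10 of 16 positive values, with medians of 0.14, 0.00830, 0.06 and 0.07. The ubiquitin-activating enzyme Uba6 was 0.65 with the cluster in dataset A (adjusted p = 0.12) and 0.08 with it in dataset B, and the deubiquitinase Usp14 was 0.35 and -0.10. Nfe2l1, a transcription factor that induces proteasome genes when the proteasome is inhibited, was 0.25 with the cluster in dataset B, 0.34 with miR-125a and -0.32 with miR-155, where the related factor Nfe2l2 was -0.31. Ufd1, a cofactor of the segregase Vcp, was 0.28 with the cluster in dataset B and 0.49 with miR-125a (adjusted p = 0.489).

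MHC class I presentation, which takes its peptides from the proteasome, was measured through 12 tested genes of 13 on the array. None was called in the 4 comparisons by limma, where at the same shares of all genes fewer than 1 call would match the background. At an unadjusted p under 0.05 there were 2 with the cluster in dataset A (7.81% of all genes) and 1 with miR-125a (10.6%). There were 0 with miR-155 (8.97%) and with the cluster in dataset B (9.76%). The chaperone Calr stood at 0.73 with the cluster in dataset A (adjusted p = 0.226) and -0.26 with it in dataset B. Of the peptide transporter genes, Tap1 was at 0.47 with the cluster in dataset A and 0.44 with miR-155, and Tap2 was at 0.28 with the cluster in dataset B. The peptide-loading factor Tapbp was -0.48 with miR-155 and -0.32 with miR-125a, and the trimming peptidase Erap1 was 0.50 with miR-125a (adjusted p = 0.406).

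Direct comparisons of vectors were fitted as well. For the cluster against miR-155, 0 of 44 members were called, against 0.868% of all genes, and 1 had an unadjusted p under 0.05 (10.3% of all genes). It was Psmb10, at 9.57, 9.50 and 9.46 on the cluster arrays against 9.96 and 9.92 on the miR-155 arrays, a difference of -0.43 ± 0.18 (3 arrays against 2, unadjusted p = 0.0292, limma adjusted p = 0.401). Its other probe, detected on all arrays, read 9.60, 10.15 and 9.80 with the cluster against 9.80 and 10.15 with miR-155, which overlap. The member median was -0.02, 19 of 44 values were positive (49.6% of all genes), 27 of 44 intervals lay within 1.5-fold (46.1%) and all 44 within 2-fold (94.1%). Groups did not overlap for 6 higher genes (13%), Psmb6, Psmb8, Psmc3ip, Psmd6, Psme4 and Psmg2, and for 5 lower (12.1%), Psma8, Psmb2, Psmb10, Psmc2 and Psmc5. For the cluster against miR-125a, 0 of 43 were called against 0% of all genes, and 0 had an unadjusted p under 0.05 (4.55%). Here all 43 intervals lay within 1.5-fold (75.7% of all genes) and so within 2-fold (97.7%), and 14 of 43 values were positive (49.1%). Only Psmb10 was higher without overlap (4.35% of all genes), and Psma2, Psmc4 and Psmd4 were lower (5.13%), 3 of 43. The smallest p belonged to Psme1 (0.27 ± 0.13, interval -0.02 to 0.55), followed by Psmb9 (0.26 ± 0.13). The other Psme1 probe read 10.69, 10.55 and 10.62 with the cluster, against 10.72, 10.58 and 10.56 with miR-125a. By that probe the groups overlap and the cluster averaged no higher.

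Whether the cluster acted alike in the 2 datasets was tested as the difference of its effects, A minus B. Of 43 members tested in both, 0 were called by limma, against 0% of 8961 genes, and 1 had an unadjusted p under 0.05 (5.51% of all genes). It was Psmb5, with a difference of effects of 0.58 ± 0.24 (interval 0.06 to 1.09, unadjusted p = 0.0299, adjusted p = 0.869). Psmd6 followed at 0.43 ± 0.20 (unadjusted p = 0.0501), Psmg3 at 0.38 ± 0.21 and Psmg2 at 0.36 ± 0.20. The difference was positive for 32 of 43 members, beside 45.5% of all genes, with a median of 0.09. Within 1.5-fold lay 24 of 43 intervals (25.6% of all genes) and within 2-fold 41 (88.3%), so that differences of that size between the datasets were not excluded for the rest.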

How the data were processed

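Each array has a deposited intensity and a detection p-value for every probe, per the file headers. The submitters' processing notes name GenomeStudio. A deposited table of log2 values for the same arrays served as an alternative. Their making is not described in what was used here. They rank as the intensities of the same groups do and are not centred per gene. Every array of dataset A has a median of 6.47 there, and every array of dataset B one of 6.80. Groups came from the sample titles. The platform annotation gave 1 symbol to 34885 probes, several to 18 and none to 10378, and all 86 member probes matched the GRCm38.p6 gene list, used for names only, with 0 symbols changed. Of 136 pairs of arrays, 0 held identical values.

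Background was removed by normal-exponential convolution in limma 3.58.1 (R 4.3.3), which infers the negative controls from the detection p-values (offset 16). Quantiles were normalized and all genes fitted within each dataset, each by its brightest probe over all arrays. For the difference of the cluster effects, the empty-vector and cluster arrays of both datasets were normalized and fitted together. A gene was tested if that probe had a detection p under 0.05 on at least 2 arrays of dataset A or 3 of dataset B. A gene was called at a Benjamini-Hochberg adjusted p under 0.05 over all genes tested. Folds are on the scale of intensities plus the offset, which makes those of dim genes smaller.

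The members, their roles, the lists and the alternatives were chosen with earlier results of these data known. Named were the catalytic, activator, assembly and tissue-specific genes, the 5 largest rises and falls and 3 smallest p per comparison, and from each list the called genes or the 2 largest changes. Genes named for groups that do not overlap, for probe gaps and for the direct comparisons, and the values of named list genes in other comparisons, were chosen after their values were seen. The reported tests are unpaired. In dataset B the deviations of empty-vector and cluster arrays of the same number correlated at 0.122, 0.186 and 0.181, so the numbers were taken as pairs in an alternative. The pairing comes from these correlations, not from the labels. Single arrays left out in turn were among the alternatives.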

Additional observations from a re-analysis of the deposited data

How the results depend on the processing

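The count of called proteasome genes was 0 for the cluster and miR-155 in dataset A, the cluster in dataset B, both direct comparisons and the difference between datasets, under each of the 15 to 18 alternatives run for them. The lowest adjusted p of a member over those alternatives was 0.447, 0.0989, 0.264, 0.190, 0.698 and 0.324. With miR-125a it was 0.0244, and the count was 0 under 15 alternatives and 3 of 43 under scaling to a common median. Under that scaling 1769 of the 9390 tested genes were called with miR-125a. The cause was not tested. That scaling moved the member medians to -0.018 (cluster, dataset A), -0.32 (miR-155), 0.31 (cluster against miR-155), 0.26 (cluster, dataset B), 0.51 (miR-125a), -0.26 (cluster against miR-125a) and -0.32 (difference between datasets), beside medians of all genes of -0.08, -0.31, 0.23, 0.32, 0.48, -0.16 and -0.41. With 1 array left out, counts stayed at 0, and medians ranged from 0.03 to 0.09 (cluster, dataset A), from 0.00534 without empty-vector array 3 to 0.10 (miR-155), from -0.07 to -0.02 (cluster, dataset B), from -0.04 to 0.07 (miR-125a), from -0.042 (-0.032 without miR-155 array 1) to 0.049 without cluster array 3 (cluster against miR-155), from -0.12 without miR-125a array 2 to -0.01 (cluster against miR-125a) and from 0.056 to 0.15 without cluster array 1 (difference between datasets). Where this left 1 miR-155 array, its spread was taken from the other groups.

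With the replicate number as a block, the cluster in dataset B had a median of -0.07 and 0 called members, and the block changed no call. In dataset A same-numbered arrays of the deposited log2 table correlated at -0.19, -0.02 and 0.36. The first 2 values lie below the highest correlation with another number (0.45), and the third lies above it (0.02). With a block there, the median was 0.05 with the cluster and 0.00500 with miR-155 (4 arrays), and 0 members were called. Of 1459 values of named genes under alternatives, 1368 lay within 1 SE of the reported value, and 88 took the other sign, all of them uncalled. Signal over background limits Psma8, Psmb11, Psmc6 and Psmd2.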
